A study of Mus musculus with 12 samples.

Results

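The genes described here are Tgm2, Fhl1, Kcnk5, Kazald1, Nupr1 and Bgn, 6 of the 18193 genes with a probe set of their own on the arrays. They were chosen by their levels in these same 12 arrays, which were highest in haematopoietic stem cells (HSC), so their values in HSC against the other cells are given as a description, without a test. All 16 probe sets named for these genes alone were used, and the main value of a gene came from its brightest probe set over the 12 arrays. Total RNA of sorted cells from C57Bl/6 mice aged 10 to 12 weeks was hybridised to Affymetrix arrays. HSC (3 arrays) were marrow cells without lineage markers that carried Kit, Sca1 and CD150 and lacked Flt3. Multipotent progenitors (MPP, 3 arrays) had the same Kit and Sca1 phenotype, with Flt3 and without CD150. PreMegE progenitors (4 arrays), early precursors of megakaryocytes and red cells, carried Kit and CD150 and lacked lineage markers, Sca1, CD105 and CD41, and CD4+ T cells (2 arrays) came from spleen as cells without CD8, B220 and NK1.1. No group carried a genetic change or treatment. The PreMegE and T cell arrays were taken from 2 earlier studies, so study and cell type cannot be told apart where they are compared with HSC or MPP.

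HSC sit at the top of blood formation and give rise to all blood lineages while renewing themselves; they divide rarely and lie in contact with marrow stroma and its extracellular matrix. The 6 genes do not form one pathway. Bgn (biglycan, a small leucine-rich proteoglycan of the matrix) and Kazald1 (a secreted relative of insulin-like growth factor binding proteins with a Kazal domain) encode secreted proteins. Tgm2 encodes tissue transglutaminase, which cross-links proteins inside and outside cells and binds GTP. Kcnk5 encodes a background potassium channel of the plasma membrane that is opened by alkaline pH, Fhl1 a LIM-only protein best known from muscle, and Nupr1 a small nuclear protein induced by stress.

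Levels are log2 intensities, given per array or as mean ± SD, and differences are on the log2 scale with the standard error (SE) of limma's fit, so that 1 is a 2-fold difference. Array medians were 14.4 to 15.6 on the linear scale. Upper quartiles differed more, from 63.4 in PreMegE replicate 1 to 80.7 in PreMegE replicate 3. Replicate arrays of one population correlated across genes at r of 0.984 to 0.994, where genes are not independent replicates. A mean under the lower quartile over genes, 3.27 to 3.35 by population, was taken as possibly not above background, and a difference from such a mean is not an exact fold. The HSC label was checked on 9 measured marker genes, of which 7 were called lower in MPP (4.93% of all genes). Among them were Slamf1 (6.83 in HSC and 3.72 in MPP) and Fgd5 (7.59 and 5.90). Procr (8.50 and 8.04) and Hlf (10.72 and 10.46) did not pass. Slamf1 is the gene of CD150, on which HSC and MPP were sorted apart, so its fall is no independent check of the label. Xist, the RNA of the silenced X chromosome in females, read 12.03 in the first HSC array against 2.45 and 2.59 in the other HSC arrays, and 10.91 to 12.44 across the remaining 9 arrays, so the HSC arrays are of mixed sex. HSC replicate 2 also stood apart from the other HSC arrays for neutrophil and B cell transcripts: Ngp was at 11.01 there against 8.20 and 7.84, and Ighm at 9.04 against 5.04 and 4.71. Ighm was higher still in MPP (9.94 to 10.7), PreMegE replicate 1 (9.35) and CD4+ T cells (12.28 and 12.49). Summed intensities of 8 measured B cell markers were 176.5 to 745.5 in HSC and 1180 to 1914 in MPP. They were 144.7 to 803.1 in PreMegE and 5322 to 6155 in CD4+ T cells. In the T cells 5 markers were called higher than in HSC (17.0% of all genes) and 1 lower (20.8%).

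The genes lie on 5 chromosomes of assembly GRCm38.p6: Tgm2 at chr2:158116405-158146392, Nupr1 at chr7:126623246-126625470, Kcnk5 at chr14:20140057-20181782, Kazald1 at chr19:45074962-45079289, and Fhl1 and Bgn both on the X chromosome, at chrX:56731209-56793346 and chrX:73483601-73495936. The RefSeq promoter table of that assembly held 7 start sites of 5 of the genes, and none was used for Tgm2. The 250 bases before the start are shown for 3 genes that stand for 3 orders of expression: Bgn, where MPP came second, Nupr1, where PreMegE came second, and Kcnk5, where both progenitors were level. For these genes the window ends at the first base before the gene. Capitals mark every match to the motifs searched on both strands, which were the GATA motif AGATAA, the ETS motif CCGGAAG, the RUNX motif TGTGGT, the E-box CAGCTG, the ATF4-type element TGATGCAA, the GC box GGGCGG, the TATA box TATAAA and CCAAT.
Bgn, chrX:73483351-73483600, plus strand: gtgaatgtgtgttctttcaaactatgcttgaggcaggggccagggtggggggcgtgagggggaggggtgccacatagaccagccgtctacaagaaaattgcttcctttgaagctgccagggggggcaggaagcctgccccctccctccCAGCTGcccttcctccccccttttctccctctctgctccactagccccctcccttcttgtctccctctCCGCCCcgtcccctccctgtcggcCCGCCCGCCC
Nupr1, chr7:126625471-126625720, minus strand: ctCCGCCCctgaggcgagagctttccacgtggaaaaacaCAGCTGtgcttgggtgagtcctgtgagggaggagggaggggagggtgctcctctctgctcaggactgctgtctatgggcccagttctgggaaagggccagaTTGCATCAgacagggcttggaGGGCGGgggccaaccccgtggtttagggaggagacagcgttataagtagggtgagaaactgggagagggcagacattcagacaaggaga
Kcnk5, chr14:20181783-20182032, minus strand: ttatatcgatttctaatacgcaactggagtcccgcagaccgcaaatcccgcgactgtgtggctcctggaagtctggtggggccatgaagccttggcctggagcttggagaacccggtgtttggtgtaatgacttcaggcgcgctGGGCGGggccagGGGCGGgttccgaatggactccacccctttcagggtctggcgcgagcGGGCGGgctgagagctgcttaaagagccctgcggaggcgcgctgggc
The Kcnk5 window held 3 GC boxes and 19 CpG dinucleotides, against a median of 6 (quartiles 2 and 16) in 32851 windows of the same length. The Bgn window held 3 GC box matches, of which the last and the one before it overlap, 1 E-box and 7 CpG. The Nupr1 window held 2 GC boxes, 1 E-box, 6 CpG and, 110 bases before the start, the ATF4-type element on the opposite strand, a match found in 0.791% of all windows. GC boxes were in 5 of the 7 windows of these genes (32.7% of all windows) and the E-box in 2 (13%). The GATA and ETS motifs were in 0 of the 7 windows, against 9.99% and 6.91% of all windows, and the RUNX motif (14.0%) was in 1, a Fhl1 window that held it 2 times. TATAAA (12.4% of all windows) and CCAAT (33.8%) were each in 1 window, the other one of Fhl1. Both Fhl1 windows were poor in CpG, with 2 and 3, and those of Kazald1 held 12 and 17. A match describes the letters only and does not show a site in use.

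All 6 genes were highest in HSC, and on the brightest probe sets every HSC array lay above all 9 other arrays. Such separation was present for 3.83% of all genes. Taken one population at a time, it was present for 14.7% of all genes over MPP, 18.4% over PreMegE and 30.6% over CD4+ T cells. A mean in HSC at least 2-fold above each other population was found for 0.599%, or 109 genes. These shares describe the contrasts that chose the genes and are no evidence about them. For scale, the fit called 11.3% of all genes between MPP and HSC, 28.9% between PreMegE and HSC and 37.8% between CD4+ T cells and HSC. MPP was at least 2-fold lower than HSC for 6 of 6 genes (2.23% of all genes), PreMegE for 5 of 6 (7.33%) and CD4+ T cells for 6 of 6 (12.8%). From HSC to MPP the measured fall was 3.22-fold to 4.52-fold, where the values of Nupr1 and Kazald1 are limited by MPP levels under or near the lower quartile. From HSC to PreMegE it ranged from 1.91-fold for Nupr1 to 54.1-fold for Tgm2, and from HSC to CD4+ T cells from 3.45-fold for Nupr1 to 57.7-fold for Tgm2. Measured by the distance from HSC to the next highest population, Fhl1 (2.15), Kcnk5 (2.15), Tgm2 (2.11) and Kazald1 (2.09) ranked 5 to 8 among all genes, Bgn (1.69) 23 and Nupr1 (0.94) 123. The sizes depended on the scale and the probe sets: with 16 added before log2 the difference of MPP from HSC was -1.03 for Nupr1 and -1.33 for Kazald1, and averaging the probe sets of a gene made that of PreMegE from HSC -3.60 for Tgm2 and -2.08 for Fhl1.

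**Figure D1:**
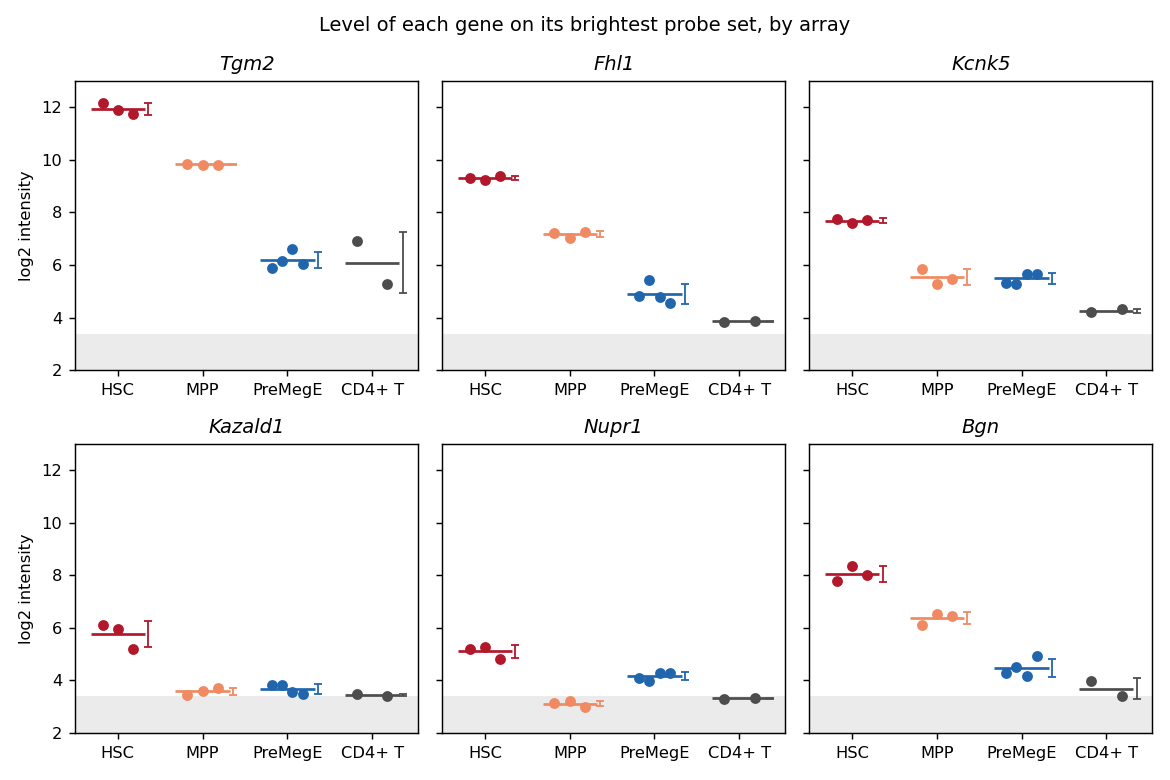
Log2 intensity of each gene on its brightest probe set (vertical axis) for the 12 arrays by population; points are arrays, horizontal lines are means, error bars are ±1 SD, and grey marks levels under the highest of the lower quartiles over genes (3.35). The HSC points lie above all others in each panel, and Tgm2, Fhl1, Kcnk5 and Bgn stay above the grey band in MPP.

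**Figure D2:**
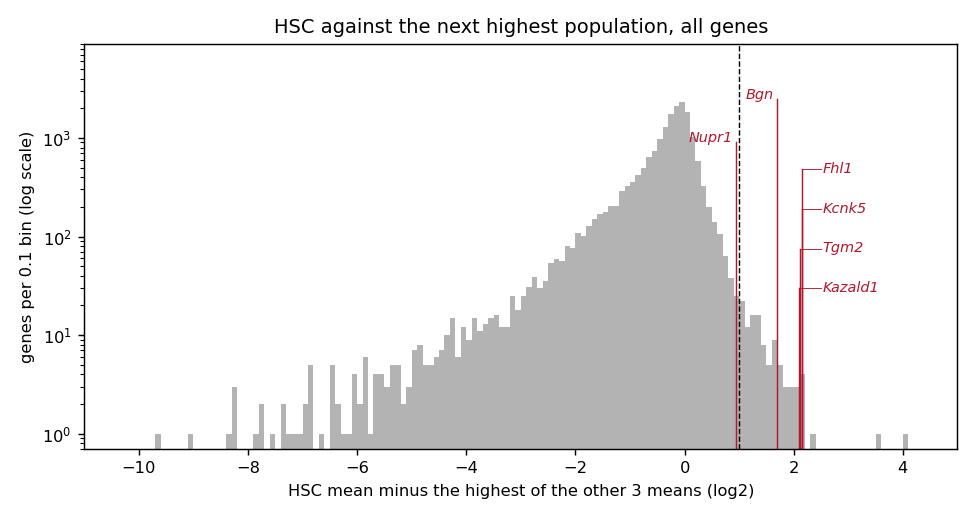
Histogram of the HSC mean minus the highest of the other 3 population means (log2, horizontal axis) for 18193 genes, counted in bins of 0.1 on a log axis; the dashed line marks a 2-fold margin and red lines mark the 6 genes. Of these, 5 lie to the right of the dashed line and Nupr1, at 0.94, just to its left.

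"Highest in HSC" describes Tgm2, Fhl1, Kcnk5 and Bgn better than "restricted to HSC". No mean of the 6 lay under the lower quartile in HSC, PreMegE or CD4+ T cells, and in MPP only that of Nupr1 did. Tgm2, Fhl1, Kcnk5 and Bgn were well above it in MPP, whereas Kazald1 outside HSC (3.44 to 3.67) was close to it. Nupr1 was above it in PreMegE (4.16) and close to it in CD4+ T cells (3.31). A mean above the lower quartile is not a detection call, so for Kazald1 these values cannot tell the descriptions apart. In sorted bulk RNA, fewer cells that express a gene and less RNA per cell cannot be told apart, so a level such as that of Tgm2 in MPP may belong to all cells or to some.

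Tgm2, the cross-linking enzyme, read 12.17, 11.90 and 11.74 in the 3 HSC arrays and 9.86, 9.80 and 9.82 in those of MPP. It was at 5.90, 6.16, 6.61 and 6.04 on the PreMegE arrays and at 6.91 and 5.27 in CD4+ T cells. The MPP arrays were the most alike of any group for this gene (SD 0.03), and the pair of T cell arrays lay on either side of the PreMegE arrays. The mean of 11.94 ± 0.22 in HSC (n = 3) fell by 2.11 (SE 0.30) in MPP (n = 3), by 5.76 (SE 0.28) in PreMegE (n = 4) and by 5.85 (SE 0.34) in the T cells (n = 2). The order was HSC, MPP, then PreMegE and T cells, which overlapped.

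Fhl1, the LIM-only protein gene, was at 9.33, 9.25 and 9.39 in HSC and at 7.22, 7.04 and 7.27 in MPP. In PreMegE it was at 4.84, 5.42, 4.77 and 4.56, and in CD4+ T cells at 3.85 and 3.88. The 4 populations formed separate steps without any overlap of arrays. Against 9.32 ± 0.07 in HSC, the mean was lower by 2.15 (SE 0.19) in MPP, by 4.43 (SE 0.17) in PreMegE and by 5.46 (SE 0.21) in the T cells. As Fhl1 is X-linked, its difference was also taken from HSC replicate 1 alone, the array with high Xist: it was -2.15 in MPP, -4.43 in PreMegE and -5.46 in the T cells, a setting chosen after seeing the data.

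Bgn, the matrix proteoglycan gene, was at 7.78, 8.36 and 8.01 in HSC and at 6.09, 6.53 and 6.46 in MPP. The PreMegE arrays gave 4.29, 4.49, 4.17 and 4.92 and the T cell arrays 3.96 and 3.40. The order was that of Fhl1, again with no overlap between neighbouring populations, although only 0.22 separated the lowest PreMegE array from the higher T cell array. The mean of 8.05 ± 0.30 in HSC fell by 1.69 (SE 0.22) in MPP, by 3.58 (SE 0.21) in PreMegE and by 4.37 (SE 0.25) in the T cells. Bgn is X-linked too, and from HSC replicate 1 alone these differences were -1.41, -3.31 and -4.10.

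Kcnk5, the potassium channel gene, was at 7.76, 7.59 and 7.73 in HSC. It was at 5.87, 5.30 and 5.47 in MPP, at 5.33, 5.30, 5.68 and 5.66 in PreMegE and at 4.21 and 4.31 in the T cells. MPP and PreMegE arrays were interleaved, and the T cell arrays lay below both. The HSC mean of 7.69 ± 0.09 exceeded MPP by 2.15 (SE 0.17), PreMegE by 2.20 (SE 0.16) and CD4+ T cells by 3.43 (SE 0.19).

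Kazald1, the secreted Kazal-domain protein gene, was at 6.11, 5.97 and 5.19 in HSC, the widest spread of the 6 genes there (SD 0.50). All other arrays lay between 3.41 and 3.82, with means of 3.58 ± 0.13 in MPP, 3.67 ± 0.18 in PreMegE and 3.44 ± 0.04 in the T cells. The 3 populations outside HSC overlapped in 2 of their 3 pairings, and PreMegE and T cells were apart by only 0.01. HSC exceeded MPP by 2.18 (SE 0.21), PreMegE by 2.09 (SE 0.20) and CD4+ T cells by 2.32 (SE 0.23). Since the lower levels were near the background level, these differences may understate the fold.

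Nupr1, the stress-induced nuclear protein gene, had the lowest margin and another order. It was at 5.19, 5.27 and 4.83 in HSC and at 4.11, 3.98, 4.29 and 4.27 in PreMegE. In MPP it was at 3.15, 3.21 and 2.99, a mean of 3.12 ± 0.11 under the lower quartile, and in CD4+ T cells at 3.30 and 3.33. PreMegE therefore came second, between HSC and the other pair of populations. The HSC mean of 5.10 ± 0.24 exceeded PreMegE by 0.94 (SE 0.15), MPP by 1.98 (SE 0.16) and CD4+ T cells by 1.79 (SE 0.17).

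Comparisons among MPP, PreMegE and CD4+ T cells do not involve HSC and were tested, although their arrays also served as the lower side when the genes were listed. PreMegE differed from MPP for 4 of 6 genes at an adjusted p under 0.05, where 33.0% of all genes were called, and for the same 4 the arrays did not overlap (39.3% of all genes). In 3 of them PreMegE was lower (19.5% of all genes): Tgm2 by 3.65 (SE 0.28, adjusted p = 8.8e-08), Fhl1 by 2.28 (SE 0.17, adjusted p = 7.4e-08) and Bgn by 1.89 (SE 0.21, adjusted p = 3.5e-06). Nupr1 was higher in PreMegE by 1.05 (SE 0.15, adjusted p = 3.8e-05), a direction called for 13.5% of all genes. Kcnk5 (-0.05, 95% interval -0.40 to 0.29, adjusted p = 0.848) and Kazald1 (0.09, interval -0.33 to 0.50, adjusted p = 0.790) did not pass. These intervals leave out a 2-fold difference in measured intensity in either direction. For Kazald1, close to the lower quartile in both populations (3.58 in MPP and 3.67 in PreMegE), the interval does not bound the fold in RNA. The sign of the Kcnk5 difference turned with quantile normalisation (0.08) and cyclic loess (0.03).

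CD4+ T cells were lower than MPP for 4 of 6 genes (20.0% of all genes were lower, 15.5% higher and 35.5% called in all), namely Tgm2 by 3.74 (SE 0.34, adjusted p = 2.9e-07), Fhl1 by 3.31 (SE 0.21, adjusted p = 4.5e-09), Bgn by 2.68 (SE 0.25, adjusted p = 3.5e-07) and Kcnk5 by 1.28 (SE 0.19, adjusted p = 5.9e-05). Kazald1 (-0.14, interval -0.64 to 0.36, adjusted p = 0.721) and Nupr1 (0.20, interval -0.17 to 0.57, adjusted p = 0.453) did not pass. Arrays of these populations did not overlap for 5 of 6 genes (57.8% of all genes). CD4+ T cells were also lower than PreMegE for 4 of 6 genes (16.8% of all genes were lower, 16.3% higher and 33.1% called in all), and arrays did not overlap for 5 of 6 (43.9%). These were Kcnk5 by 1.23 (SE 0.18, adjusted p = 5.4e-05), Fhl1 by 1.04 (SE 0.20, adjusted p = 6.0e-04), Nupr1 by 0.85 (SE 0.17, adjusted p = 6.7e-04) and Bgn by 0.79 (SE 0.24, adjusted p = 0.0159). The Bgn call ended without CD4+ T cell replicate 2 (-0.51, adjusted p = 0.240) and with the replicate number as a block (-0.65, adjusted p = 0.0505), and on the gene's next brightest probe set the difference had the opposite sign (0.23, adjusted p = 0.419). Tgm2 did not pass with both T cell arrays (-0.09, interval -0.78 to 0.59, adjusted p = 0.876). Without T cell replicate 1 it was lower in T cells by 0.91 (adjusted p = 0.0122) and without replicate 2 higher by 0.73 (adjusted p = 0.0444), so its place against PreMegE is set by which T cell array is used. Study and population cannot be told apart in any of these comparisons.

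**Figure D3:**
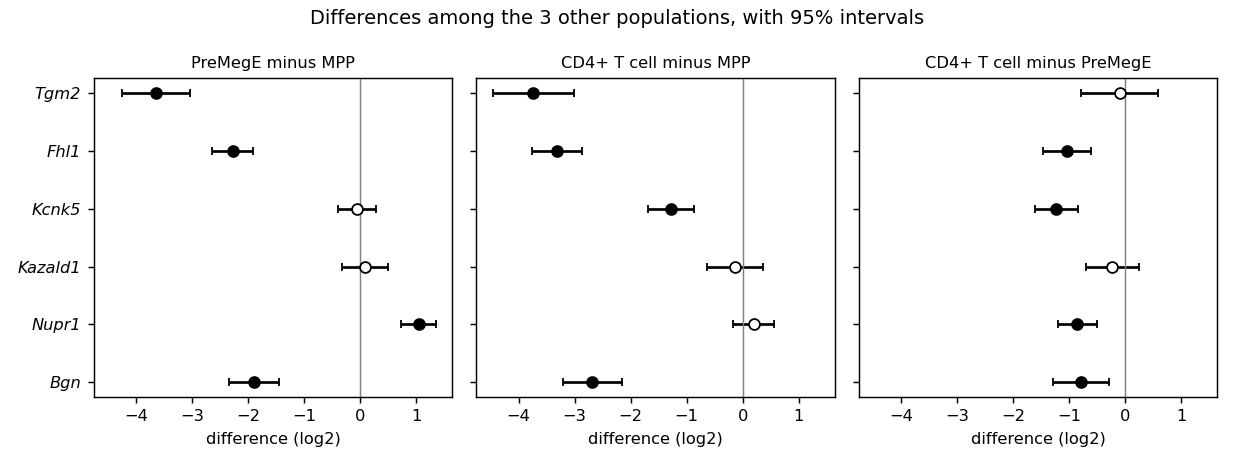
Differences of the 6 genes between the populations other than HSC (log2, horizontal axis), with 95% intervals from limma; filled points passed an adjusted p under 0.05. Tgm2, Fhl1 and Bgn lie left of 0 in PreMegE minus MPP, Nupr1 lies right of it, and Kcnk5 and Kazald1 cross it.

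The 16 probe sets did not all carry the pattern. In 12 of them every HSC array lay above all 9 others. The probe sets on which it failed were 1 each of Tgm2, Fhl1, Kcnk5 and Nupr1, and of these the Tgm2, Fhl1 and Kcnk5 sets had means of 2.81 to 3.20, under the lower quartile in all 4 populations. The brightest of the 6 Tgm2 probe sets and the next 2, all of the _x_at kind that can bind related transcripts, put HSC above MPP by 2.11, 2.09 and 2.00, and the latter pair followed the brightest at r of 0.999 and 0.996 over the 12 arrays. The next, 1417500_a_at, gave 1.45 over MPP, 4.0 over PreMegE and 3.94 over CD4+ T cells. On it Tgm2 was at 3.40 ± 0.40 in PreMegE and 3.46 ± 0.56 in T cells, close to the lower quartile, where the brightest gave 6.18 ± 0.31 and 6.09 ± 1.16. These 4 sets disagree on the depth of the fall but share the order of HSC, then MPP, then the rest. A dimmer one, 1426004_a_at, had 4.67 in HSC and 3.56 to 4.0 elsewhere, and on it and on the dimmest set PreMegE was not below MPP (4.0 and 3.95, 2.91 and 2.86).

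Bgn had 3 probe sets, all with HSC above the other arrays. They gave 1.69, 2.05 and 1.80 over MPP and 3.58, 4.10 and 3.10 over PreMegE. PreMegE was above T cells on the brightest (4.47 and 3.68) and below them on the others (3.50 and 3.73, 3.93 and 4.18). The second Nupr1 probe set, 1419666_x_at, repeated the order of the means, 4.12 in HSC, 3.57 in PreMegE, 3.14 in T cells and 2.83 in MPP, but its HSC arrays read 3.36, 4.63 and 4.36, and the first of these fell among the PreMegE arrays. On that set PreMegE exceeded MPP by 0.74 (adjusted p = 0.0687). Fhl1 and Kcnk5 each rest on 1 responsive probe set, 1417872_at and 1421852_at, and Kazald1 on its single one, 1436528_at.

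**Figure D4:**
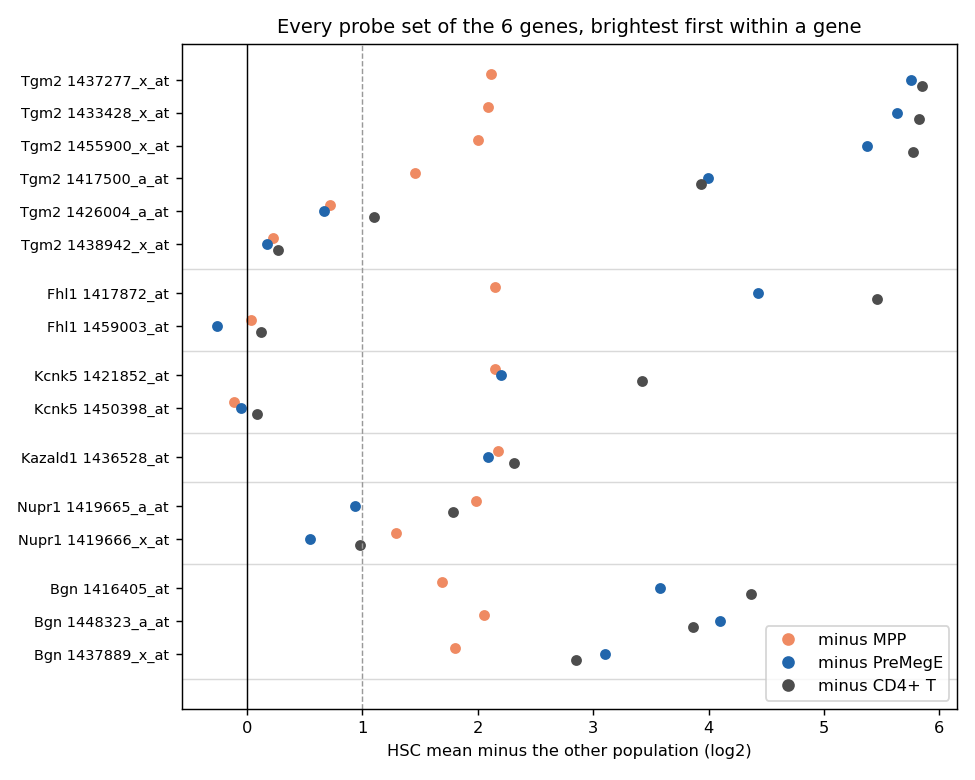
HSC mean minus the mean of each other population (log2, horizontal axis) for the 16 probe sets, brightest first within a gene; the solid line marks 0 and the dashed line a 2-fold difference. The 3 Bgn sets and the upper 4 Tgm2 sets lie to the right of the dashed line for every population, while the dim sets of Fhl1 and Kcnk5 lie at 0.

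Over the 12 arrays, Tgm2, Fhl1 and Bgn were the most alike, at Pearson r of 0.968 for Tgm2 with Fhl1, 0.968 for Tgm2 with Bgn and 0.980 for Fhl1 with Bgn. These correlations are descriptions, since all 3 genes were listed for being high in HSC and the arrays form 4 clusters. Over the 9 arrays outside HSC the same pairs had r of 0.916, 0.927 and 0.949, while Nupr1 ran against them at -0.686, -0.508 and -0.491. Among other named genes with group means at least 2-fold apart, those whose values over the 12 arrays were most like Tgm2 were Pear1, B4galt4, Neurl1b, Grn and Zmynd11 (r of 0.981 to 0.986). The nearest to Fhl1 were Ndn, Mmrn1, Fgd5, Ube2e2 and Shroom4 (0.981 to 0.988), and the nearest to Bgn were Ndn, Mmrn1, Nbea, Emc2 and Fgd5 (0.980 to 0.988), with 3 names in both lists. Kcnk5 was closest to Cc2d2a, Pf4, Trim47, Asxl1 and Ccnf (0.962 to 0.989). Kazald1 was closest to Sult1a1, Gprin2, Runx1t1, Fat1 and Cpne8 (0.949 to 0.959), and Nupr1 to Treml1, Gp1bb, Cited2, Tubb1 and Zbtb43 (0.941 to 0.981). As examples, Ndn had means of 9.17, 7.35, 4.86 and 3.86 in the order HSC, MPP, PreMegE and T cells, and Treml1 of 7.21, 5.24, 6.16 and 5.31.

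Relatives and partners of the 6 genes were taken as 8 lists of 89 genes, of which 83 were measured. They were tested against HSC because the choice of the 6 did not use them. The lists were drawn up with earlier results of these data known, so their calls are not free of that knowledge. In MPP against HSC 15 of 83 were higher (18.1%, against 6.38% of all genes) and 2 lower (2.41%, against 4.93%), with a median difference of 0.00 against -0.03 over all genes. In PreMegE against HSC 4 were higher (11.9% of all genes) and 15 lower (17.0%), and in CD4+ T cells 7 were higher (17.0%) and 13 lower (20.8%). Among all MPP calls 56.4% were higher, a share that was 44.4% with quantile normalisation and 46.7% with cyclic loess, and the relatives then gave 13 higher and 2 lower or 15 and 3. Called lower in both progenitors was 1 of the 83 genes, Itgb3, picked out after its values were seen. Unlike the 6 genes, Itgb3 was higher in CD4+ T cells than in HSC (1.07, adjusted p = 0.0194).

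Of 7 measured transglutaminase relatives of Tgm2, 1 rose and 0 fell in MPP, the riser being F13a1, the A chain of clotting factor XIII (1.55, adjusted p = 0.00497), and 0 changed in PreMegE, where Tgm5 had the smallest p (-0.36, adjusted p = 0.0913). Of 8 partners and receptors of Tgm2, Itgb3, a beta integrin chain, fell by 2.51 in MPP (adjusted p = 4.8e-05) and by 4.26 in PreMegE (3.0e-08). The surface proteoglycan Sdc4 rose by 1.72 in MPP (adjusted p = 1.0e-04) and fell by 2.16 in PreMegE (1.7e-06), and in all 1 rose and 1 fell in MPP and 4 fell in PreMegE. Among 6 FHL relatives and Fhl1 partners 1 rose in each progenitor, Ring1, a Polycomb protein (0.58, adjusted p = 0.0480 in MPP, and 0.99, 3.2e-04 in PreMegE). The MPP call of Ring1 ended with quantile normalisation (adjusted p = 0.132) and with cyclic loess (0.0827). Of 11 other tandem-pore potassium channels, Kcnk12 rose by 1.83 in MPP (adjusted p = 2.0e-05) and fell by 1.19 in PreMegE (1.7e-04). Kcnk6 fell by 2.02 in PreMegE (adjusted p = 1.1e-05), and the counts were 1 higher and 0 lower in MPP and 1 and 3 in PreMegE. Beside the counts of each list, 6.38% of all genes were higher and 4.93% lower in MPP, and 11.9% and 17.0% in PreMegE.

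Of 11 genes related to Kazald1, 1 rose and 0 fell in each progenitor, the growth factor binding protein gene Igfbp4 (0.83, adjusted p = 0.00425 in MPP, and 0.88, 5.0e-04 in PreMegE). Of 17 stress response genes linked to Nupr1, 7 rose and 1 fell in MPP, against 6.38% and 4.93% of all genes. The gene that fell was Chac1 (-0.51). The mean of Nupr1 itself was lowest in MPP, but under the lower quartile and not called apart from CD4+ T cells (adjusted p = 0.453). A relation between Nupr1 and these genes was not tested. Risers were led by Ppp1r15a, a phosphatase subunit of the stress response (1.74, adjusted p = 3.1e-04), and the transcription factor gene Cebpb (1.41, adjusted p = 0.00132). In PreMegE 1 rose, the stress transcription factor gene Ddit3 (1.27, adjusted p = 2.6e-05), and 4 fell, with Cebpb lowered by 1.72 (4.0e-05). The shares of all genes in PreMegE were 11.9% higher and 17.0% lower, for this list and the others. Of 14 other small leucine-rich proteoglycans 0 changed in MPP, where Ogn had the smallest p (-0.43, adjusted p = 0.160), and 1 fell in PreMegE, Chad (-0.61, adjusted p = 0.0470, and 0.0758 with quantile normalisation). Of 9 receptors of Bgn and TGF-beta ligands 3 rose in MPP, led by Cd44, a hyaluronan receptor (0.87, adjusted p = 0.0102), and P2rx7, an ATP-gated channel (0.83, 0.00483). In PreMegE 3 fell, with the innate immune receptor genes Tlr2 lower by 1.55 (adjusted p = 1.6e-05) and Tlr4 by 1.03 (0.0272).

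**Figure D5:**
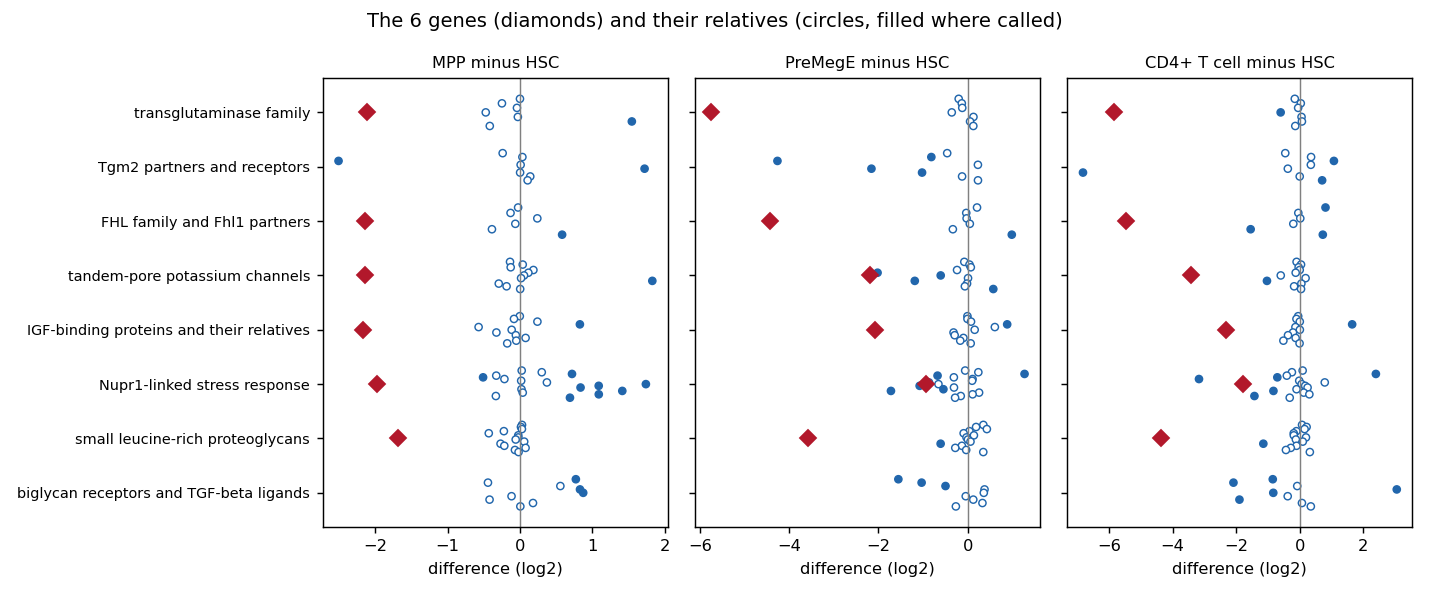
Log2 difference from HSC (horizontal axis) in MPP, PreMegE and CD4+ T cells for the 6 genes (diamonds) and the genes of 8 lists of relatives and partners (circles, filled where called at an adjusted p under 0.05). The diamonds lie left of 0 in every panel, and most circles lie near 0, with 15 called higher and 2 lower in MPP.

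Markers of other cells that express some of these genes were read beside them. For Bgn, a gene of connective tissue, 14 stromal markers had summed intensities of 374 to 413 on the HSC arrays, 458 to 481 in MPP, 877 to 1133 in PreMegE and 2615 to 2674 in the T cells, where Thy1 (11.25), also a T cell gene, made up most of the sum. Among the marrow populations HSC, with the highest Bgn, had the lowest sum. The T cell sum cannot be set beside it because of Thy1. Against HSC, 1 of the 14 was called higher in MPP (6.38% of all genes) and 0 lower (4.93%). In PreMegE 3 were higher (11.9%) and 1 lower (17.0%). In CD4+ T cells 1 was higher (17.0%) and 4 lower (20.8%), the latter being the direction of Bgn. The part of stromal transcripts in the level of Bgn was not tested. Col1a1, Col3a1 and Lum were under the lower quartile in all 4 populations. For Tgm2, which macrophages express, 12 macrophage markers summed to 281 to 782 in HSC, 636 to 678 in MPP, 775 to 861 in PreMegE and 675 to 860 in the T cells. In MPP 2 of them were called higher than in HSC (6.38% of all genes) and 0 lower (4.93%). In PreMegE 1 was higher (11.9%) and 4 lower (17.0%), with a median difference of -0.59, the direction of Tgm2 there. In CD4+ T cells 5 were higher (17.0%) and 1 lower (20.8%), with a median difference of 0.48, the opposite of the direction of Tgm2. The part of these markers in the level of Tgm2 was not tested. Marco was under the lower quartile in the marrow populations. Endothelial markers summed to 505 to 547 in HSC, 673 to 727 in MPP, 397 to 432 in PreMegE and 240 to 253 in T cells. Of these 12, 2 were called higher (6.38% of all genes) and 3 lower (4.93%) in MPP than in HSC. Lyve1 was under the lower quartile throughout.

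Megakaryocyte markers were, like the 6 genes, highest in HSC. Over 8 measured genes they summed to 4134 to 4539 in HSC and 445 to 504 in MPP. Their sum was 776 to 1164 in PreMegE and 140 to 184 in the T cells. Against HSC, 7 of 8 were called lower in MPP (4.93% of all genes) and 7 of 8 in PreMegE (17.0%). Between the progenitors, 5 of 8 were called higher in PreMegE than in MPP (13.5% of all genes) and 0 lower (19.5%). This was the direction of Nupr1 and the opposite of Tgm2, Fhl1 and Bgn. Gp6 was under the lower quartile in all 4 populations. The part of these transcripts in the levels of the 6 genes was not tested. Neutrophil markers summed to 458, 539 and 4122 on the HSC arrays, the highest on 1 array. With any 1 array left out, the members' differences from HSC kept their sign, and the widest ranges were -6.67 to -5.03 for Tgm2 in CD4+ T cells and -4.65 to -4.09 for Bgn there.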

How the data were processed

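The authors deposited 1 intensity per probe set on a linear scale, and the submitters' processing notes name RMA; which arrays were normalised together is not given in the sources used here. Log2 was taken here, with no further normalisation or filter and without 64 control probe sets. Probe sets were named from the platform annotation where it gave a single symbol (34945 of 45101). A gene took its brightest probe set, 18193 genes in all. A limma 3.58.1 model in R 4.3.3 with a mean per population used all 12 arrays, with eBayes and two-sided tests. P-values were adjusted by Benjamini-Hochberg over all genes and called under 0.05, and the fit was tested on simulated data. The 2 T cell arrays borrow their spread from the other groups. Groups and replicate numbers came from the titles. Whether replicates are separate mice is not in the labels; p-values therefore cover only variation among these samples, which may be technical, and the number of arrays limits the precision.

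The 6 genes and all lists were chosen with earlier results of these data known. Named were the 6 genes, the 5 genes most like each over 12 arrays, markers that moved with a result, and of each list of relatives the 2 called genes with the largest change (or the smallest p where none was called), printed here for MPP and PreMegE against HSC. Positions and promoters are RefSeq's, GRCm38.p6. Of the alternatives, 21 were planned, 12 of them leaving out 1 array, and 2 were added after seeing the data.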

Additional observations from a re-analysis of the deposited data

Results flagged for a closer look

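On 2 dim probe sets 1 PreMegE array stood far from the other 3, judged by its gap as a share of the group's range; chance flags about 1 in 20 groups, and 16 were examined. For the Tgm2 probe set 1426004_a_at the highest PreMegE array was at 4.27, with the others at 3.90 to 3.94. For the Kcnk5 probe set 1450398_at it was at 3.25, with the others at 2.87 to 2.93. Neither gave the main value of its gene.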

How the results depend on the processing

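Members' differences among MPP, PreMegE and CD4+ T cells kept direction and call in 391 of 411 values under alternatives. The call was lost in 12 and gained in 2, and the sign changed in 9, some of which are among these. Differences from HSC stayed within 1 SD of replicates in 370 values, moved further in 38 and changed sign in 3. An offset of 16 moved 13 of them, the mean of all probe sets 12 and the next brightest probe set 9. The next brightest probe set, possible for 9010 genes and not for Kazald1, called 686 genes in MPP against HSC, 2020 in PreMegE against HSC, 2905 in CD4+ T cells against HSC, 2611 in PreMegE against MPP, 2856 in T cells against MPP and 2482 in T cells against PreMegE. Members called were then 2 in PreMegE against MPP, 2 in T cells against MPP and 0 in T cells against PreMegE, and 3, 2 and 2 were at least 2-fold below HSC in MPP, PreMegE and T cells. Relatives called were 9, 11, 15, 11 and 12 in MPP against HSC, T cells against HSC, PreMegE against MPP, T cells against MPP and T cells against PreMegE. On those sets, dim for Fhl1 and Kcnk5 but not for Bgn, signs turned for Fhl1 in PreMegE against HSC (0.26) and MPP (0.29), Kcnk5 in MPP (0.11) and PreMegE (0.048) against HSC, and Bgn in T cells against PreMegE (0.23). Using HSC replicate 1 alone, added after seeing the data, called 779 genes in MPP and 3395 in PreMegE against HSC and 9 relatives in MPP. Leaving out 1 array gave 1280 (without MPP replicate 3) to 2341 genes in MPP against HSC, -0.91 to 0.73 for Tgm2 in T cells against PreMegE, and -0.18 to 0.11 for Kcnk5 in PreMegE against MPP. The Tgm2 value was 0.062 on its probe set not named _x_at, and the Kcnk5 value 0.080 with quantile normalisation and 0.026 with cyclic loess. The Bgn call in T cells against PreMegE also ended with the mean of all probe sets (-0.10, adjusted p = 0.728) and an offset of 16 (-0.41, adjusted p = 0.109). Where no construction shows it, the cause was not tested. Array numbers limit precision. Kazald1 outside HSC, Nupr1 in MPP and CD4+ T cells, and the dim probe sets lay near background.

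Replicate numbers were shared between groups, and deviations of same-numbered arrays correlated at r of -0.119 to 0.413 over 15 pairs, above 0.1 in 3 of them; in 17 of 30 comparisons of an array with another group its own number was closest. The numbers were not taken to pair the samples. With the replicate block 2153, 5034, 7113, 5800, 6519 and 5929 genes were called in the comparisons in the order above, and the members called were 4, 4 and 3, with Bgn lost in T cells against PreMegE (-0.65, adjusted p = 0.0505).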
